A study of Rattus with 108 samples.

Results

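Skin labelled 0 day was compared between the surgical sites of 2 rat models of postsurgical pain. In the SMIR model (Skin/Muscle Incision and Retraction), which the study uses for chronic pain, 4 libraries were made from skin taken at 0 day. In the LPI model (Lateral Paw Incision), which it uses for acute pain, 4 libraries were made in the same way. The members were chosen by their labels alone, as the 0 day skin columns of both models, and make up 8 of the 108 RNA-seq libraries of the series. The series also covers muscle and dorsal root ganglia (DRG), which house the cell bodies of sensory neurons, and later harvests at 6 hours, 2 days and 10 days, plus a 32 day harvest in SMIR alone. Each group has 4 libraries. No group carries a genetic change or a drug treatment in the labels, and all rats were perfused with saline under isoflurane. The strain, sex and age of the rats, the place of the SMIR incision, and whether 0 day rats were naive or sham-operated were not stated in the sources used here. Single animals are numbered in the labels but the protocol mentions RNA pools, so every p-value measures the spread between libraries. Body site, rats and count table change together between the 2 groups, and their parts in any difference cannot be told apart.

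Skin is a layered organ. Keratinocytes of the epidermis form the barrier, fibroblasts of the dermis make the collagen matrix, and hair follicles, sebaceous and sweat glands, fat, vessels, nerve endings and, in rodents, a thin sheet of muscle under the dermis are present in proportions that depend on the body region. Haired skin of the trunk and limbs and the hairless, thickened skin of the paw pads differ in their keratins, in their glands and in the positional genes that fibroblasts keep from development. In whole skin, fewer cells of a type and less RNA per cell cannot be told apart.

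The count tables name genes by Ensembl identifiers only, and the reference table paired 0 of them with a symbol. Lists of cell type markers therefore could not be read, and the label of the tissue was checked with groups of genes that the counts themselves define. A gene was called skin-enriched when it reached 5 CPM (counts per library scaled to the same total) in skin at 10 days at both sites with at least 8 times the level in muscle and DRG at 0 day. Muscle-enriched and DRG-enriched genes were found in the same way from those tissues. None of the 8 skin libraries of 0 day was used to define them. The 588 skin-enriched genes held between 9.48% and 10.5% of the counts in SMIR skin and between 20.9% and 25.4% in LPI skin. Muscle-enriched genes held at most 0.0473% of the counts in any of the 8 skin libraries.

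The SMIR skin libraries held 27268720 to 30265923 counts, and the LPI skin libraries held 19080096 to 29386121. No 2 libraries of a group agreed within counting noise (lowest chi-square per degree of freedom 15.56 over 12 pairs), so none looked like a library deposited more than once. This does not show that they came from separate animals. The first principal component held 86.8% of the variance of log2 levels over 9925 genes of at least 10 TMM-scaled CPM and separated the sites, with SMIR libraries at -53.8 to -46.02 and LPI libraries at 38.4 to 56.16. The median standard deviation of a gene between libraries was 0.117 in SMIR skin and 0.136 in LPI skin on the log2 scale. The library of LPI rat 1 lay farthest from the mean of its group, with a root mean square deviation of 0.294 against 0.153 to 0.23 in the other 7. Outside skin, 2 libraries of 0 day stood apart. The DRG library of SMIR rat 4 gave 3.37% of its counts to DRG-enriched genes where the other 3 SMIR libraries gave 17.7% to 20.3%, and the muscle library of LPI rat 1 gave 0.0831% to muscle-enriched genes where the other 3 LPI libraries gave 2.52% to 7.8%.

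RNA in SMIR skin was spread over more genes than in LPI skin. The 2 most abundant genes of a library held 3.06%, 2.85%, 3.18% and 2.92% of the counts in the 4 SMIR libraries, against 15.4%, 13.5%, 8.59% and 13.4% in the 4 LPI libraries. The groups did not overlap, and the library of LPI rat 3 lay nearest to SMIR. The means were 3% ± 0.148 in SMIR skin and 12.7% ± 2.9 in LPI skin (SD, n = 4 each; exact permutation test, two-sided, p = 0.0286, the smallest that 4 against 4 libraries can give). The number of genes that together held 50% of the counts was 883 ± 12.6 in SMIR skin and 367 ± 74.2 in LPI skin (SD, n = 4 each; exact permutation p = 0.0286). More genes had at least 1 count in SMIR skin, from 18962 to 19372 genes per library, than in LPI skin, from 17455 to 18285. After all libraries were thinned to the lowest total, the means were 18600 ± 161 genes in SMIR skin and 17500 ± 294 in LPI skin (SD, n = 4 each; exact permutation p = 0.0286). The TMM factors were 1.15 to 1.19 in SMIR skin and 0.819 to 0.927 in LPI skin. A gene at the same TMM-scaled level at both sites therefore holds a larger share of the counts in SMIR skin.

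The site difference reached most of the genes measured. Of 16070 genes tested with edgeR's quasi-likelihood test, 9878 (61.5%) passed an adjusted p of 0.05, 5102 of them higher in SMIR skin (31.7%) and 4776 lower (29.7%). The median size of a called difference was 0.82 on the log2 scale, with a median standard error of 0.13. At least 2-fold differences were more often on the side of SMIR, with 2627 genes higher (16.3%) and 1376 lower (8.56%), and at least 8-fold differences likewise, with 471 higher and 184 lower. The direction went with the level of the gene. In the lowest of 4 equal bins of mean level, up to 4.27 TMM-scaled CPM, 33.7% of the genes were called higher in SMIR skin and 10.1% lower. In the highest bin, from 49.3 CPM upwards, 24.9% were called higher and 50.9% lower.

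**Figure D1:**
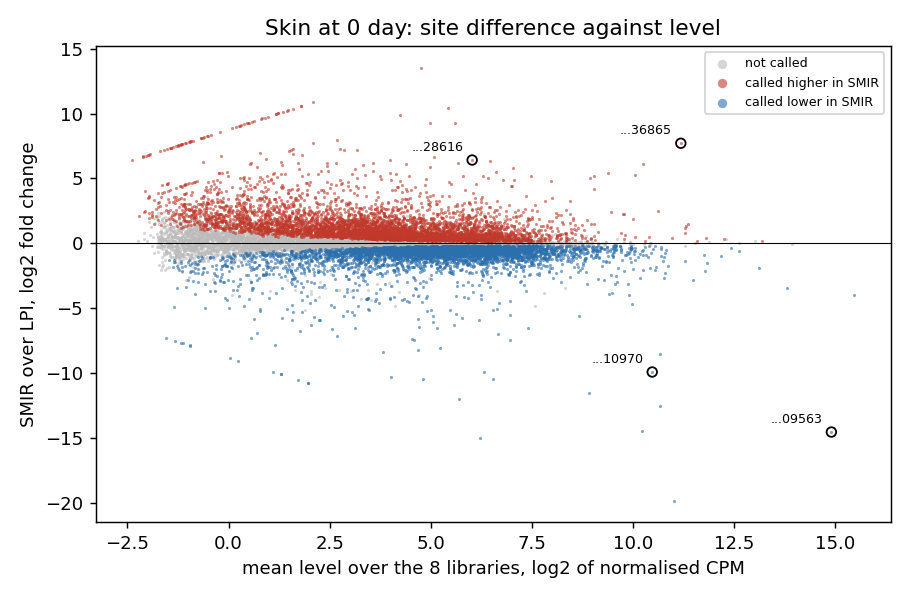
Site difference of each of the 16070 genes tested in skin at 0 day (vertical axis, log2 fold change of SMIR over LPI) against its mean level over the 8 libraries (horizontal axis, log2 of normalised CPM), with the 4 genes described by identifier circled and marked by the last 5 digits. Called higher genes are most frequent at low levels and called lower genes at high levels; the straight row of points at upper left holds genes without a count in LPI skin, whose fitted values are not bounds.

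The length of genes moved with the site as well. In each library the log2 level of each gene, less its mean over the 8 libraries, was set against log2 gene length. This relative slope lay between 0.043 and 0.069 in the 4 SMIR skin libraries. In the 4 LPI skin libraries it lay between -0.0685 and -0.0371, so the groups did not overlap. Its sign tells how a library differs from the mean of the 8, not whether its counts rise or fall with length. Among the shortest of 4 equal bins of genes, up to 1.46 kb, 23.6% were called higher in SMIR skin and 29.3% lower, while among the longest, from 3.65 kb upwards, 39.4% were called higher and 27.8% lower. In skin at 10 days the slopes of the 2 sites overlapped slightly (0.0144 to 0.0715 in SMIR and -0.135 to 0.018 in LPI), and in muscle and DRG at 0 day they overlapped widely. Adding the slope of each library to the fit left 7 genes called higher and 12 called lower in SMIR skin. Of the 4003 genes that differed at least 2-fold, 3251 kept their sign in that fit, with a median size of 1.11 and a median standard error of 0.95, against 1.65 and 0.24 without the slope. Since the slope separates the groups, the length trend and the site cannot be told apart in these 8 libraries.

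**Figure D2:**
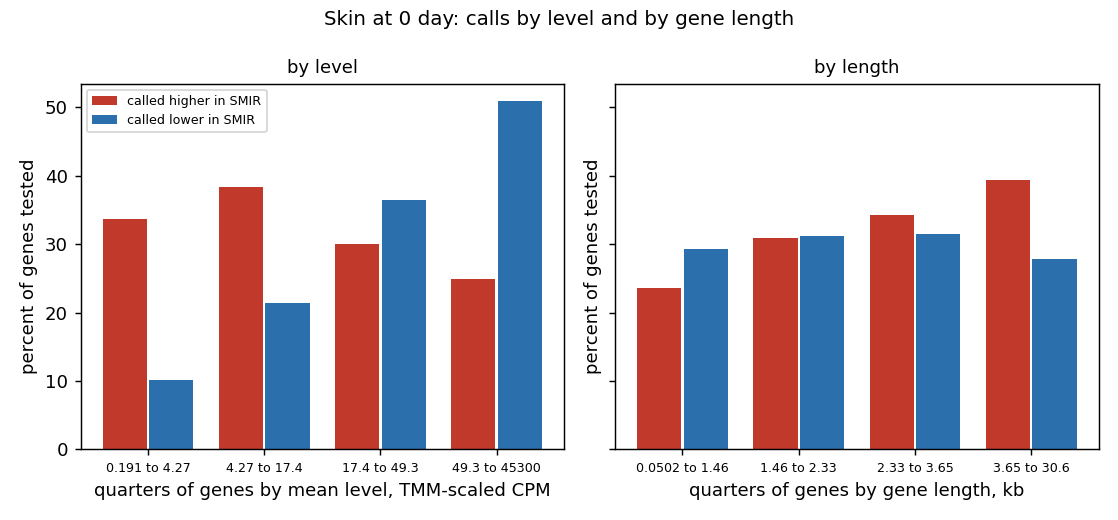
Percent of tested genes called higher (red) or lower (blue) in SMIR skin at 0 day, in 4 equal bins of genes by mean level in TMM-scaled CPM (left) and by gene length in kb (right). The share called higher falls to 24.9% in the bin of highest level and reaches 39.4% in the bin of longest genes.

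Beyond the whole transcriptome, 4 genes were taken by a rule of size, the 2 largest rises and the 2 largest falls among called genes with at least 10 counts in each of the 8 libraries. Their names and roles are not given here, since the identifiers were paired with none. Their levels are in CPM of each library after TMM scaling over the 36 libraries of the tissue, and their fold changes are log2 values from the edgeR fit.

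ENSRNOG00000036865 had 3410, 4210, 5330 and 5500 CPM in SMIR skin, against 29.8, 19.8, 23.8 and 13.1 CPM in LPI skin. Every SMIR library lay far above every LPI library (log2 fold change 7.71, SE 0.33, adjusted p = 9.31e-07). By deposited FPKM, which corrects for gene length, it ranked 28 among all genes in SMIR skin and 8026 in LPI skin. From 0 day through 6 hours, 2 days and 10 days to 32 days its mean in SMIR skin was 4610, 701, 346, 570 and 3910 CPM. From 0 day to 10 days its mean in LPI skin was 21.6, 6.16, 8.2 and 11 CPM. The sites stayed apart at each time they share, and at 10 days the log2 fold change was 5.67 (SE 0.38, adjusted p = 9.98e-05). In muscle and DRG at 0 day it had at most 0.504 CPM in any library of either model.

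ENSRNOG00000028616 had 155, 134, 64.2 and 160 CPM in SMIR skin, against 0.648, 1.02, 2.51 and 1.79 CPM in LPI skin. The groups were separate, with SMIR rat 3 the lowest of its group (log2 fold change 6.42, SE 0.48, adjusted p = 1.67e-05). Its level in SMIR skin varied after incision, with 0.453 to 1.7 CPM at 6 hours. At 2 days its 4 libraries had 10.9, 11.8, 7.23 and 66.6 CPM and at 10 days 23.2, 6.7, 6.92 and 5.99 CPM, so 1 library lies well above the other 3 and raises each mean (24.1 and 10.7). At 32 days its 4 libraries ranged from 50.5 to 551 CPM. Over the same times the means in LPI skin were 1.49 (0 day), 0 (6 hours), 0.108 (2 days) and 2.1 CPM (10 days). At 10 days the site difference was 2.32 (SE 0.67, adjusted p = 0.0332). It was also counted in muscle at 0 day, with 7.15, 33.9, 0.209 and 7.78 CPM in SMIR and 5.13, 4.72, 7.07 and 0.983 CPM in LPI, where the groups overlapped (log2 fold change 1.44, SE 1.08, adjusted p = 0.273).

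ENSRNOG00000009563 was the second most abundant gene of LPI skin by FPKM, where it took 5.31% of the counts. It had 2.25, 1.91, 3.41 and 2.83 CPM in SMIR skin, against 80500, 64300, 33300 and 66500 CPM in LPI skin. No library of SMIR skin approached one of LPI skin (log2 fold change -14.54, SE 0.47, adjusted p = 3.71e-07). Over all times its mean in SMIR skin stayed between 0.891 and 2.6 CPM. In LPI skin it was 61100 (0 day), 53800 (6 hours), 1230 (2 days) and 24900 CPM (10 days), so its lowest LPI time, 2 days, was still above each SMIR time. The difference at 10 days was -14.72 (SE 0.62, adjusted p = 1.39e-05). In muscle at 0 day it had 0.167 to 1.28 CPM in SMIR and 1.34 to 4.35 CPM in LPI (log2 fold change -1.83, SE 0.6, adjusted p = 0.027).

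ENSRNOG00000010970 had 2.42, 4.65, 2.04 and 2.83 CPM in SMIR skin, against 3490, 4050, 1060 and 2750 CPM in LPI skin. LPI rat 3 was the lowest of its group and still far above the SMIR libraries (log2 fold change -9.91, SE 0.62, adjusted p = 1.06e-05). Its SMIR mean was at most 2.98 CPM at any time. Its LPI mean was 2840 (0 day), 2680 (6 hours), 19.1 (2 days) and 648 CPM (10 days). At 10 days the log2 fold change was -11.23 (SE 0.85, adjusted p = 0.000238). In muscle at 0 day its 8 libraries held no count except 5 in LPI rat 3, and in DRG at 0 day none held any.

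With the length slope in the fit, ENSRNOG00000009563 kept its call (-12.73, adjusted p = 0.0308), and the other 3 genes kept their sign at 8.25, 4.75 and -8.35 and lost it (adjusted p = 0.119 for ENSRNOG00000036865, 0.484 for ENSRNOG00000028616 and 0.238 for ENSRNOG00000010970).

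**Figure D3:**
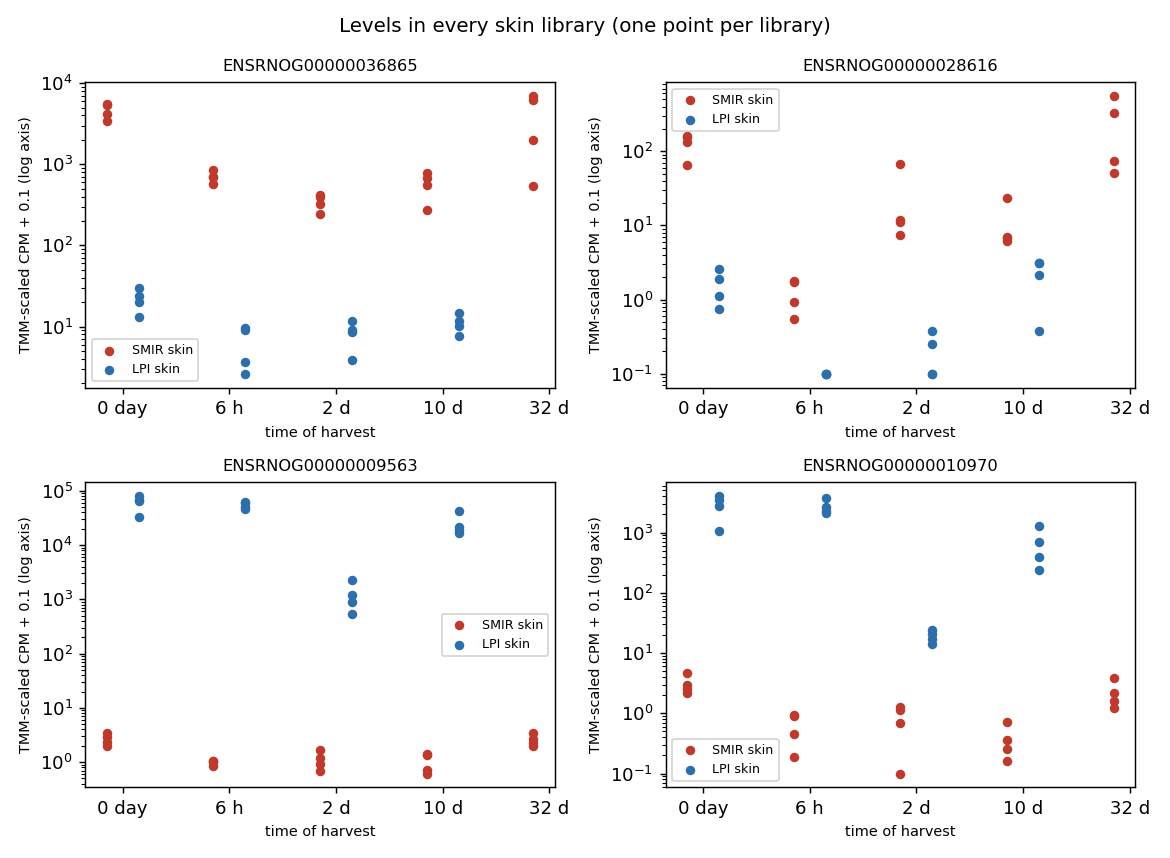
TMM-scaled CPM + 0.1 (log axis) of the 4 genes in every skin library by time of harvest, SMIR in red and LPI in blue, 1 point per library; there is no LPI group at 32 days. All 4 genes are separate between the sites at each shared time, and both genes high in LPI skin have their lowest LPI values at 2 days, with means of 1230 and 19.1 CPM.

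Skin-enriched genes were lower at the SMIR site. Of the 588 skin-enriched genes 578 were tested, and 89 rose in SMIR skin (15.4%) while 363 fell (62.8%), against 31.7% and 29.7% over all genes tested. In the bins of level above 4.27 TMM-scaled CPM, 38.4%, 30% and 24.9% of all genes were higher, from the lower to the highest bin. In the same bins 21.4%, 36.5% and 50.9% were lower, and the skin-enriched genes were not matched for level. The median log2 fold change of the skin-enriched genes was -0.94, against 0.04 over all genes. At least 2-fold changes among them numbered 63 higher and 235 lower. With the length slope in the fit the median was -0.49. Together they held 9.48%, 10.5%, 10.5% and 10.1% of the counts in SMIR skin, against 25.4%, 23.8%, 20.9% and 24.2% in LPI skin (means 10.1% ± 0.48 in SMIR and 23.6% ± 1.93 in LPI, SD, n = 4 each; exact permutation p = 0.0286, adjusted over 7 gene groups 0.0333). The groups did not overlap. Without the 7 genes that exceeded 1% of the counts in a library, the difference was -6.4 percentage points (adjusted exact permutation p = 0.04), against -12.8 to -14.3 with any 1 library left out. Over all times the share stayed between 8.89% and 18.1% in the 20 SMIR skin libraries and between 18.2% and 28.1% in the 16 LPI skin libraries.

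Genes enriched in DRG, a tissue of neurons and Schwann cells, were higher at the SMIR site. Of 825 such genes only 431 passed the filter on low counts in skin, 191 of which rose in SMIR skin (44.3%) and 50 fell (11.6%), against 31.7% and 29.7% over all genes tested, with a median log2 fold change of 0.82. A gene can pass this filter through 1 site alone, and without it the median was 0.97. In the 2 lower of the 4 bins of level, 33.7% and 38.4% of all genes were higher and 10.1% and 21.4% lower. The share of counts was 0.463%, 0.427%, 0.453% and 0.474% in SMIR skin, against 0.22%, 0.241%, 0.258% and 0.221% in LPI skin, with no overlap (exact permutation p = 0.0286, adjusted 0.0333). Such shares are not TMM-scaled, and the TMM factors by themselves favour a larger share in SMIR skin. DRG-enriched genes were long, with a median of 3.13 kb against 2.33 kb over all genes tested. In the fit with the length slope their median was 0.14.

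Muscle-enriched genes were also higher at the SMIR site, at very low levels. Of 106 such genes 46 were tested, and 25 rose in SMIR skin (54.3%) while 3 fell (6.52%), with a median log2 fold change of 1.1. Over all genes tested the shares were 31.7% and 29.7%, and in the bin of lowest level 33.7% and 10.1%. A gene can pass the filter on low counts through 1 site alone, which bears on genes at such low levels. The median was 1.28 without the filter, and 0.96 to 1.43 with any 1 library left out. The share of counts of muscle-enriched genes was 0.0444% ± 0.00199 in SMIR skin and 0.0172% ± 0.00189 in LPI skin (SD, n = 4 each; exact permutation p = 0.0286, adjusted 0.0333). Here too the TMM factors by themselves favour a larger share in SMIR skin. In muscle of the same day the share was 7.63% to 9.52% in SMIR and 0.0831% to 7.8% in LPI. The skin shares were far below these levels except for that of LPI rat 1, the muscle library that stood apart.

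Genes that respond to injury in muscle were read in skin of both sites, with no test over time. Injury genes were defined in muscle, as those at least 4-fold above 0 day in both models with every injured library above every 0 day library, 255 genes at 6 hours and 448 at 2 days. The 2 groups share 137 genes, so they are not separate readings. The early group held 0.569% ± 0.0404 of the counts in SMIR skin and 0.545% ± 0.0196 in LPI skin at 0 day (SD, n = 4 each; exact permutation p = 0.343), and the groups overlapped. At 6 hours its share was 1.31% in SMIR skin and 2.83% in LPI skin, above each 0 day library of the same site. At 2 days the means were 1.95% in SMIR skin and 2.97% in LPI skin. At 10 days the LPI libraries, at 0.573% to 0.666%, all lay above those of 0 day, at 0.518% to 0.561%. The SMIR libraries of 10 days, at 0.582% to 0.706%, and of 32 days, at 0.529% to 0.816%, overlapped those of 0 day, at 0.533% to 0.624%. Of the 232 tested members of the early group 84 rose in SMIR skin at 0 day (36.2%) and 63 fell (27.2%), near the 31.7% and 29.7% over all genes tested. Their median log2 fold change, from TMM-scaled levels, was 0.28, against 0.04 over all genes. The later group held 1.95% ± 0.101 in SMIR skin and 2.18% ± 0.0634 in LPI skin at 0 day (SD, n = 4 each; exact permutation p = 0.0286, adjusted 0.0333). Leaving out any 1 of the 4 LPI libraries brought the adjusted exact permutation p to 0.0667. At 2 days its share was 3.97% in SMIR skin and 5.69% in LPI skin. At 10 days the LPI libraries, at 2.19% to 2.42%, overlapped those of 0 day, at 2.1% to 2.25%. The SMIR libraries of 10 days, at 2.29% to 2.66%, all lay above those of 0 day, at 1.83% to 2.07%. By 32 days, at 1.95% to 2.63%, the SMIR libraries overlapped those of 0 day. Of the 429 tested members of the later group 168 rose in SMIR skin at 0 day (39.2%) and 142 fell (33.1%), against the same 31.7% and 29.7%. Their median log2 fold change was 0.2, on the side of SMIR, while the share of the group was lower in SMIR skin. The shares of both injury groups are not TMM-scaled, and the TMM factors at 0 day favour larger shares in SMIR skin. Like shares at 0 day thus do not mean like TMM-scaled levels.

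**Figure D4:**
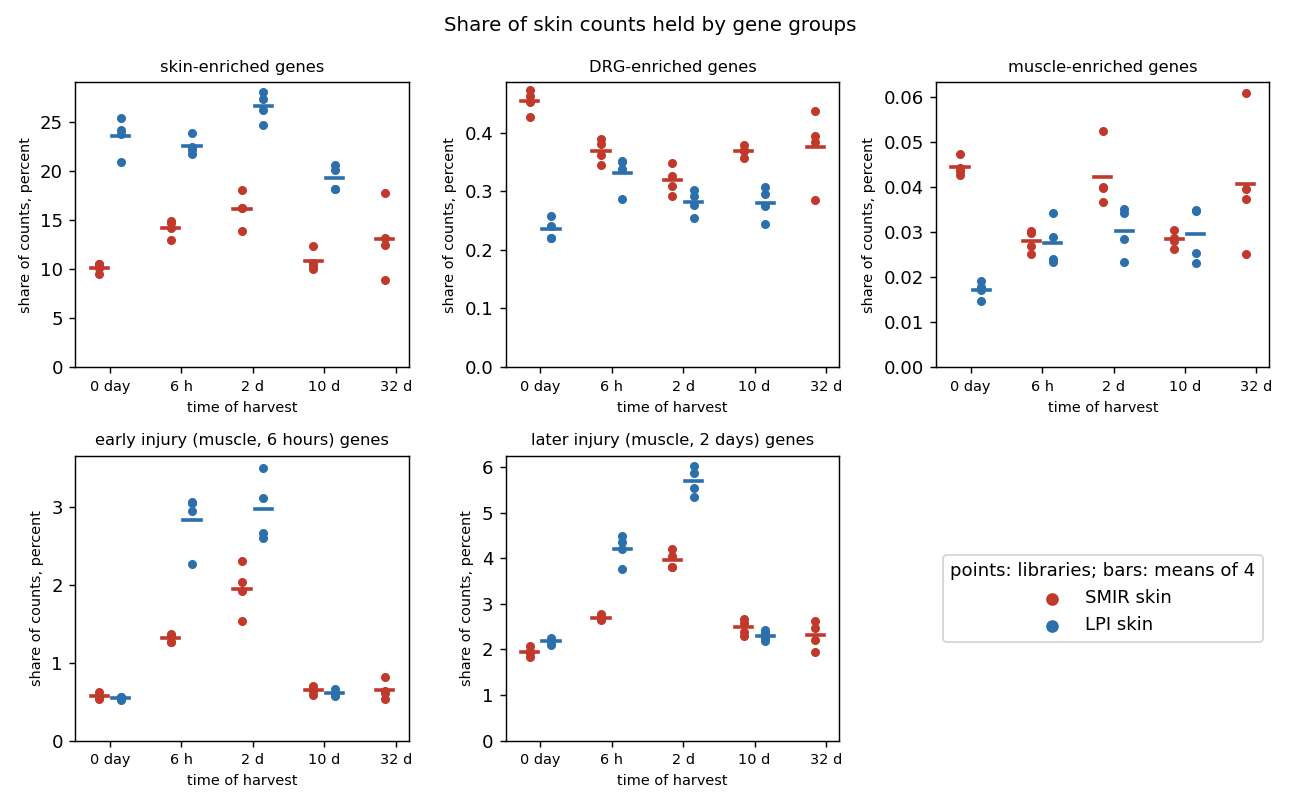
Share of counts held by 5 gene groups in every skin library by time of harvest, SMIR in red and LPI in blue, with points for libraries and bars for means of 4. At 0 day the sites are apart for skin-enriched, DRG-enriched and muscle-enriched genes, while the early injury group lies at 0.569% in SMIR and 0.545% in LPI. The early injury group is higher at 6 hours at both sites and has its highest means at 2 days, 1.95% in SMIR and 2.97% in LPI.

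Some genes were counted at one site and not at the other. In SMIR skin 64 genes had at least 10 counts in all 4 libraries and none in the 4 LPI libraries, at levels of 0.451 to 63.9 CPM (median 1.53). Against a floor of 3 counts over the LPI group they were at least 14.5-fold to at least 2060-fold higher in SMIR skin, from mean CPM without TMM scaling. The TMM factors by themselves favour larger bounds of this kind in SMIR skin. In LPI skin 13 genes met the same rule in the other direction, at 0.696 to 3610 CPM (median 4.25), and were at least 26.9-fold to at least 140000-fold lower in SMIR skin. Thinning all libraries to the lowest total left 58 genes for SMIR and 11 for LPI. Of the 64 genes, 14 had at most 3 counts over all 16 LPI skin libraries and 11 were counted in each of the 20 SMIR skin libraries. Of the 13 genes, 5 had at most 3 counts over all 20 SMIR skin libraries and 6 were counted in each of the 16 LPI skin libraries. These 16 and 20 libraries include those of 0 day, by which the genes were chosen, so that part of each count was fixed beforehand. At least 10 counts in all 4 SMIR libraries were met again by 9 of the 64 genes at 6 hours, 13 at 2 days, 29 at 10 days and 31 at 32 days. In LPI skin 6 of the 13 genes met this again at 6 hours, 5 at 2 days and 10 at 10 days. Some met it at the other site after incision. In SMIR skin 3 of the 13 genes did so at 6 hours, 5 at 2 days and 0 at 10 and 32 days. In LPI skin 1 of the 64 genes did so at 6 hours, 4 at 2 days and 4 at 10 days.

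The site difference was met again in other rats. In skin at 10 days, 1921 of 16183 genes were called higher in SMIR (11.9%) and 2157 lower (13.3%). Across the 15705 genes tested at both times, the log2 fold changes of 0 day and of 10 days had a Pearson correlation of 0.69 and a Spearman correlation of 0.64, a description over genes that share their libraries. Of the genes at least 2-fold higher in SMIR skin at 0 day, 2451 were tested at 10 days, of which 926 were called higher and 30 lower, with a median log2 fold change of 0.76. Of the genes at least 2-fold lower at 0 day, 1351 were tested at 10 days, of which 762 were called lower and 19 higher, with a median of -0.7. These 10 day calls are of any size, for which the shares over all genes tested are the 11.9% and 13.3% above. Over all genes tested at 10 days, 924 were at least 2-fold higher (5.71%) and 569 at least 2-fold lower (3.52%). The 10 day counts rest in part on single libraries. Without SMIR rat 4, 1196 genes were called higher and 1334 lower at 10 days, and without SMIR rat 6, 1125 and 1424.

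Both directions were followed over the time course. Among the 2627 genes at least 2-fold higher at 0 day, every SMIR library lay above every LPI library for 834 at 6 hours (31.7%, against 23.7% over all genes tested), 946 at 2 days (36%, against 19.8%) and 1128 at 10 days (42.9%, against 15.6%). The opposite order, every SMIR library below, was met by 292 of them at 6 hours (11.1%), 77 at 2 days (2.93%) and 21 at 10 days (0.799%). Their median level in SMIR skin, as log2 of TMM-scaled CPM + 1, was 3.3 (0 day), 1.84 (6 hours), 2.38 (2 days), 2.85 (10 days) and 3.17 (32 days). In LPI skin it was 1.75 (0 day), 1.45 (6 hours), 1.7 (2 days) and 2.14 (10 days). Among the 1376 genes at least 2-fold lower, every SMIR library lay below every LPI library for 859 at 6 hours (62.4%, against 29%), 833 at 2 days (60.5%, against 19.4%) and 768 at 10 days (55.8%, against 15.1%). Every SMIR library lay above for 214 of them at 6 hours (15.6%), 93 at 2 days (6.76%) and 29 at 10 days (2.11%). Their median in SMIR skin was 3.52 (0 day), 4.46 (6 hours), 4.63 (2 days), 4.33 (10 days) and 4.04 (32 days), and in LPI skin 5.18 (0 day), 5.32 (6 hours), 5.25 (2 days) and 4.97 (10 days). SMIR libraries of 32 days, set beside LPI libraries of 10 days, lay all above for 1139 of the 2627 genes (43.4%, against 11.5%) and all below for 653 of the 1376 (47.5%, against 10.1%). Both sets were chosen for their gap at 0 day, which favours a wider gap at that time.

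A smaller set kept the sites apart in every later library. For 61 of the 2627 higher genes (2.32%, against 0.436% over all genes tested), each of the 16 SMIR skin libraries after 0 day lay above each of the 12 LPI skin libraries after 0 day. For 139 of the 1376 lower genes (10.1%, against 1.05%), each SMIR library lay below each LPI library. The median 0 day log2 fold change was 3.62 for the 61 genes and -1.99 for the 139. In muscle at 0 day, where 26.7% of all genes tested in skin lay above and 26.8% below in every SMIR library, 11 of the 61 lay above and 7 below, and 39 of the 139 lay below and 28 above. In DRG at 0 day, where the shares over all genes were 4.74% above and 5.81% below, 2 of the 61 lay above and 2 below, and 7 of the 139 lay below and 6 above.

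Muscle at 0 day also differed between the models, and the skin and muscle differences were compared gene by gene. Of 15091 genes tested, 4565 were called higher in SMIR muscle (30.2%) and 4594 lower (30.4%), and without the muscle library of LPI rat 1 the counts were 4185 and 4374. Across 14444 genes the skin and muscle differences had a Pearson correlation of 0.05 and a Spearman correlation of -0.03. Libraries of both tissues carry the same rat numbers, but the sources do not settle whether a library is an animal or a pool. Of the genes called higher in SMIR skin, 4661 were tested in muscle, where 1241 were called higher and 1578 lower. Of those called lower in SMIR skin, 4346 were tested in muscle, where 1414 were called lower and 1485 higher. These counts stand beside the 30.2% higher and 30.4% lower over all genes tested in muscle. The skin difference itself differed from the muscle difference for 9868 of 16909 genes in edgeR's interaction test (58.4%), upwards for 5466 (32.3%) and downwards for 4402 (26%), and the median over all genes was 0.2. That test did not pair skin and muscle by rat number. With such pairing it called 5048 genes upwards and 4271 downwards.

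Genes that differed between the muscles of the 2 models were also read in skin. At least 2-fold differences in muscle were 2463 higher (16.3%) and 2881 lower (19.1%). The lower genes include 229 of the 448 later injury genes. Of the 2272 genes of the first kind tested in skin, 735 were higher in SMIR skin (32.4%) and 666 lower (29.3%), with a median log2 fold change of 0.04. Of the 2764 genes of the second kind tested in skin, 991 were higher in SMIR skin (35.9%) and 806 lower (29.2%), with a median of 0.17. These shares lie near the 31.7% and 29.7% of all genes tested in skin. In shares of counts, the first group held 17.9% ± 0.461 in SMIR skin and 13.7% ± 0.691 in LPI skin, and the second 20.6% ± 0.73 in SMIR skin and 24.7% ± 0.799 in LPI skin (SD, n = 4 each; exact permutation p = 0.0286 and adjusted 0.0333 for both). The TMM factors favour a larger share in SMIR skin for genes at equal scaled level, so the gap of the first group is no sign of higher scaled levels. Without the 7 genes above 1% of the counts the difference of the first group was 1.22 percentage points (adjusted exact permutation p = 0.04), against 4.22 with them. For the second group the difference turned to 0.394 percentage points in that setting (adjusted exact permutation p = 0.371).

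In DRG at 0 day, edgeR called 0 of 15979 genes (0%). An unadjusted p under 0.05 was met by 2120 genes (13.3%). DESeq2 called 149 higher and 65 lower in SMIR. Without the DRG library of SMIR rat 4, which stood apart, edgeR called 1 gene. Ganglia of C2 to C5 were taken in SMIR and of C3 to C6 in LPI. Across 14504 genes the log2 fold changes of skin and DRG had a Pearson correlation of 0.14.

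**Figure D5:**
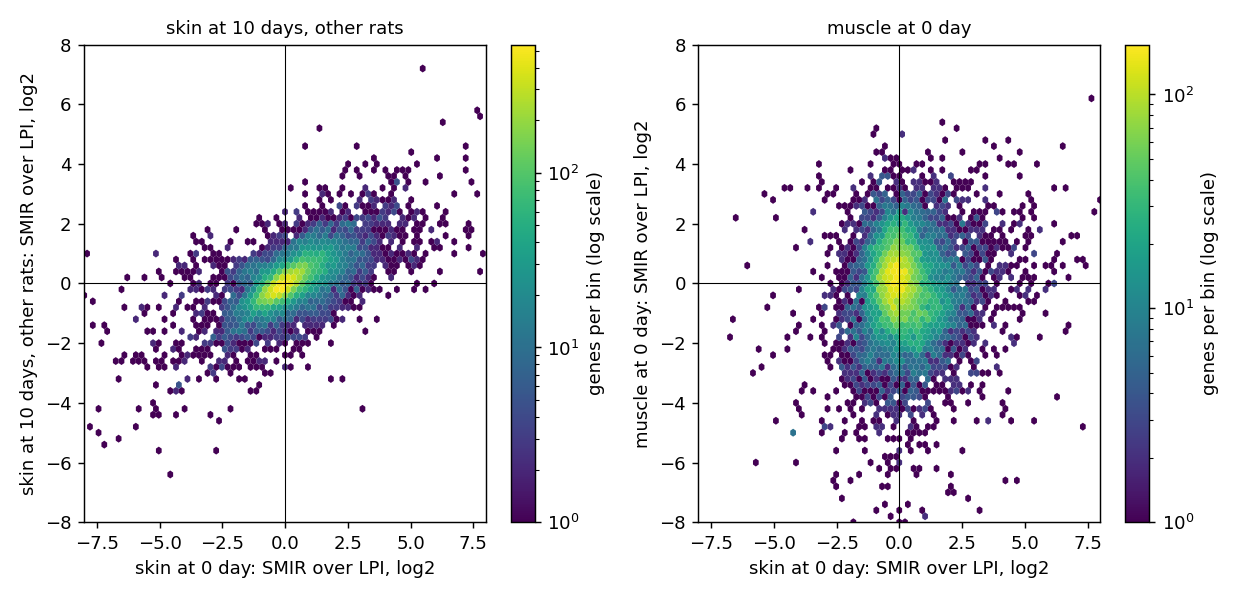
Log2 fold change of SMIR over LPI in skin at 0 day (horizontal axes) against that in skin at 10 days (left, 15705 genes) and in muscle at 0 day (right, 14444 genes); colour gives the number of genes per bin on a log scale, and 49 and 56 genes beyond the axis limits of 8 are not drawn. The cloud is tilted on the left (Pearson correlation 0.69) and not on the right (0.05).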

How the data were processed

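RNA-seq libraries were strand-specific TruSeq libraries sequenced on an Illumina NovaSeq instrument, per the labels' protocols. The authors deposited whole-number read counts per gene, not normalized, and FPKM values in matching tables, 1 per model and tissue, with 32623 Ensembl genes each. FastQC 0.11.2, STAR and StringTie are named in the submitters' processing notes, as are the builds rn6 and hg38, without a role. The treatment of reads from near-identical genes was not given in the sources used here. Columns were matched to groups by model, time code and tissue. Time code 1 was taken as 6 hours by elimination. Rat numbers are those of the column names. The 0 day numbers do not pair the models, since same-numbered skin libraries deviated together with correlations of -0.067, 0.274, -0.18 and -0.091.

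The test was edgeR's (version 4.0.16, R 4.3.3; TMM, filterByExpr, robust quasi-likelihood fit, two-sided, Benjamini-Hochberg adjusted p under 0.05), in each comparison over its own 8 libraries, and over 16 for the interaction of skin and muscle. Fold changes are SMIR over LPI. A gene is called when it passed this test. Levels of single genes, bins of level and medians by time used CPM after TMM scaling over the 36 libraries of a tissue. Gene groups, shares and fold bounds used CPM without it. Deposited FPKM served for ranks and, with CPM, for gene length (genes of at least 20 counts). Shares used exact permutation tests. The scripts were tested on simulated data. DESeq2 1.42.0, RLE scaling, no filter, left-out libraries, a replicate block, a length slope and all 36 skin libraries were alternatives. Thinning to the lowest total was added after seeing the data.

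The rule for named genes and the marker lists needed symbols and could not be applied. The rule's fallback gave the 4 identifiers, and the gene groups were defined from the counts after seeing the data. The members and lists were chosen with earlier results of these data known. Intervals and floors of 3 counts cover counting error only.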

Additional observations from a re-analysis of the deposited data

Results flagged for a closer look

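The site difference of 3 of the 4 genes described by identifier was not the same in skin as in muscle at 0 day, by edgeR's interaction test. The skin difference minus the muscle difference was 6.12 for ENSRNOG00000036865 (SE 1.1, adjusted p = 0.000232), 4.99 for ENSRNOG00000028616 (SE 1.26, adjusted p = 0.00356) and -12.7 for ENSRNOG00000009563 (SE 0.82, adjusted p = 4.91e-08), all on the log2 scale. These genes were chosen for their large skin difference in the same libraries, which favours a large value here, so the values are descriptions. In muscle ENSRNOG00000036865 had at most 14 counts in a library, so its value rests on few counts there. ENSRNOG00000010970 was almost without counts in muscle, and its value could not be estimated (SE 102.5). ENSRNOG00000009563, at 1.34 to 4.35 TMM-scaled CPM in LPI muscle at 0 day, had 6140 CPM in 1 LPI muscle library of 6 hours and 9880 CPM in 1 of 10 days, and these libraries gave 4.71% and 5.24% of their counts to skin-enriched genes. At 2 days the 3 LPI muscle libraries with 4.49%, 6.33% and 6.16% in skin-enriched genes had 0.691, 256 and 0.588 CPM of it. Among 30 groups of 4 libraries (the 4 genes, the 7 gene groups and 4 measures of composition at each site), none had a library outside Dixon's limit of 0.829, where chance would flag about 1 in 20.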

How the results depend on the processing

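With the length slope in the fit, 7 genes were called higher and 12 lower in SMIR skin at 0 day, and all of these differed at least 2-fold. The slope separates the groups, so this fit has little left to estimate the site from. Under RLE scaling, no filter, DESeq2, all 36 skin libraries, scaling without genes above 1% of counts and thinning, the counts lay between 4673 and 5306 higher and between 4304 and 4876 lower. With a replicate block on the number in the column name they were 4615 and 4339. Without 1 library they were 4609 to 5181 higher (2464 to 2897 at least 2-fold) and 4444 to 4621 lower (1335 to 1457 at least 2-fold). At 10 days the replicate block, with 3 shared numbers only, gave 519 higher and 501 lower, and leaving out 1 library gave 1125 to 2274 and 1334 to 2010; the cause was not tested. In DRG, DESeq2 called 149 higher and 65 lower, and leaving out 1 library gave 0 to 1 higher and 0 lower. In muscle, leaving out 1 library gave 3807 to 4871 and 4158 to 5124, and for skin minus muscle 5147 to 5838 and 4137 to 4619; the block changed neither by over 1.5 times. Shares (SMIR minus LPI, percentage points) without 1 library ran from -14.3 to -12.8 for skin-enriched, 0.0263 to 0.028 for muscle-enriched, 0.212 to 0.228 for DRG-enriched, 0.00594 to 0.0364 for early injury, -0.275 to -0.194 for later injury, 3.99 to 4.54 for genes higher in SMIR muscle and -4.45 to -3.79 for genes lower in it. Without genes above 1% of counts, early injury reversed to -0.0719 and genes lower in SMIR muscle to 0.394, while later injury went to -0.64 (-0.234 with them), genes higher in SMIR muscle to 1.22 (4.22) and skin-enriched genes to -6.4 (-13.4). Of the medians of gene groups, the length slope moved skin-enriched genes to -0.49 and turned later injury to -0.14 and genes lower in SMIR muscle to -0.19. The lowest of the 8 totals, 19080096 counts in an LPI library, limits what can be seen of the genes absent from LPI skin.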
